A study of Mus musculus with 11 samples.

Results

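Serotonin receptors, the serotonin transporter and the enzymes that make and break down serotonin were followed in RNA sequencing of mouse mitral leaflets, the flaps of the heart's inflow valve on the left side. The set was chosen by gene symbol and holds 7 genes: the receptors Htr2a, Htr2b and Htr1b, the transporter Slc6a4, the synthetic enzyme Tph1 and the monoamine oxidases Maoa and Maob. All 7 were listed both in the deposited table of 24062 genes for the Ift88 experiment and in that of 26667 genes for the Dzip1 experiment. In the Ift88 experiment 3 libraries came from knockout mice, with floxed alleles (Ift88f/f) and NfatC1Cre(+), and 2 from mice that carried the same Cre with wild-type alleles (Ift88+/+). The Cre follows the Nfatc1 gene, which marks the endocardial lineage of the valve, so cells without a history of Nfatc1 expression are not targeted; the titles mark these 5 libraries as analysed anew. In the Dzip1 experiment 3 libraries came from Dzip1S14R/+ mice, heterozygous for the S14R allele, and 3 from Dzip1+/+ mice. The sources used here give no age, and they do not say whether each library is a separate animal, so the p-values speak of the spread among libraries alone.

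Serotonin is made from tryptophan by tryptophan hydroxylase and an aromatic amino acid decarboxylase, is carried into cells by the transporter that Slc6a4 encodes, and is broken down by monoamine oxidase. Most serotonin of the body is made in the gut and circulates inside platelets, which take it up through the same transporter. In heart valves the pathway is known above all for HTR2B, the Gq-coupled receptor through which fenfluramine-type drugs and high serotonin thicken leaflets.

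Library totals ran from 23.4 to 53.8 M counts (Ift88) and from 75.1 to 93.5 M counts (Dzip1). Ift88, the targeted gene, stood at 6.31 and 21.2 CPM (the count relative to the library total, on the usual CPM scale) in the wild-type libraries and at 3.03, 4.12 and 0.428 CPM in the knockout libraries. Dzip1, whose S14R allele changes the protein, ranged from 28.0 to 29.5 CPM in S14R/+ and from 27.6 to 32.3 CPM in its wild type. Ift88 wild-type replicate 2 stood apart: 16 cardiomyocyte markers summed to 137 CPM there and to between 33035 and 62184 CPM in the other 4 libraries. Wild-type replicate 1 stood apart in another way: 12 endothelial markers summed to 388 CPM there and to between 2168 and 3362 CPM in the other 4. The 12 genes listed as valve interstitial markers were counted in every library. Their summed level ran from 1799 CPM, in Ift88 wild-type replicate 1, to 9658 CPM. Replicates of a genotype varied by 87.7% (Ift88) and 7.85% (Dzip1), edgeR's biological coefficient of variation.

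Maoa and Maob were the highest of the 7 genes by mean level per kilobase in every group, and Tph1 had at most 2 counts in each Dzip1 library. A gene was called expressed in a group where every library reached 1 CPM. By that measure Htr2a, Maoa and Maob were expressed in all 4 groups, Slc6a4 was expressed in the Ift88 knockout and the Dzip1 wild type, and Htr2b, Htr1b and Tph1 were expressed in none. With 0.5 CPM as the limit Htr1b joined in both Dzip1 groups and Slc6a4 in S14R/+, which raised the number expressed there from 3 to 5, and with 2 CPM only Maoa and Maob were left as expressed in all 4 groups.

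**Figure D1:**
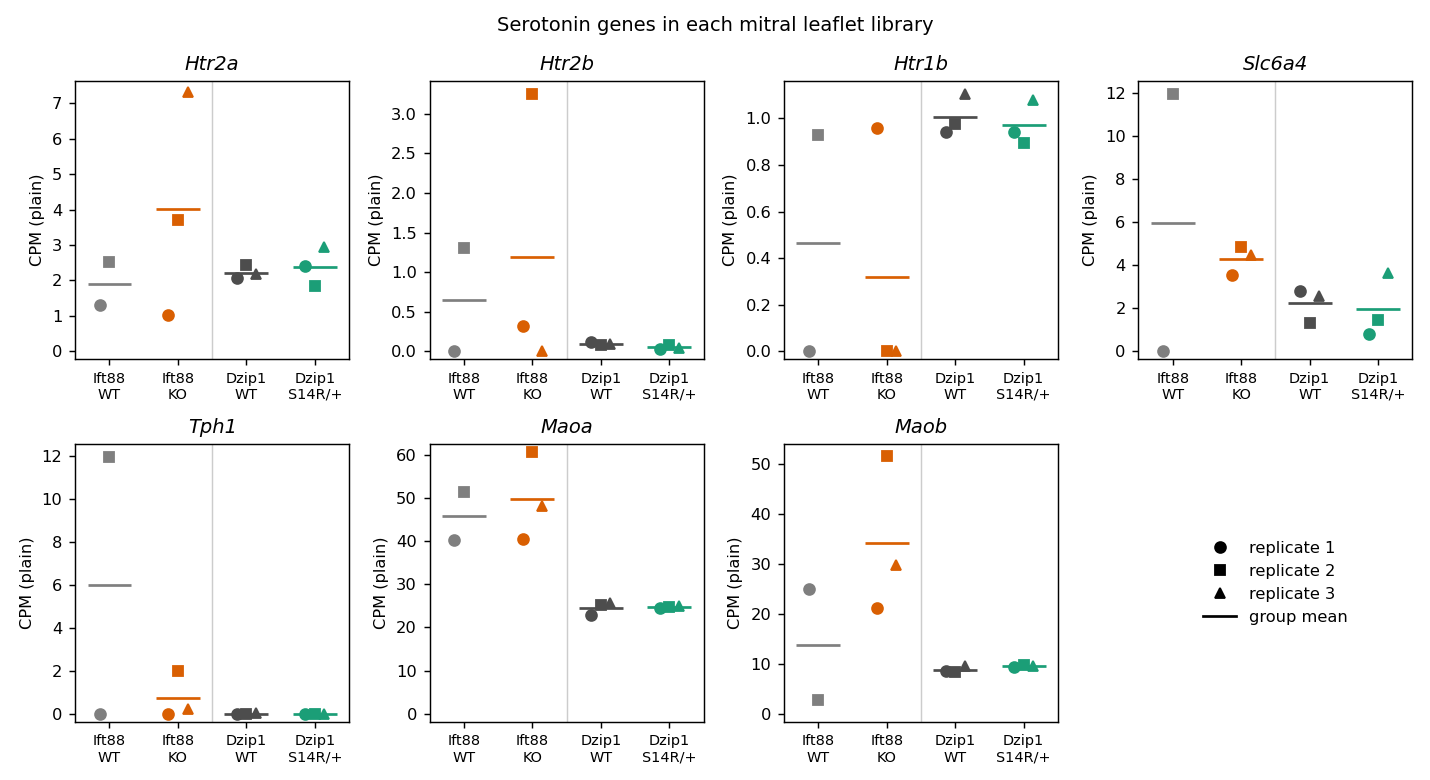
Plain CPM (vertical axis, starting near 0, with its own scale in each panel) of the 7 genes in the 11 libraries, by group; symbols give the replicate and bars the group mean. The Dzip1 libraries lie close together except for Slc6a4, while in the Ift88 experiment Htr2b, Htr1b, Slc6a4 and Tph1 each stood at 0 in at least 1 library.

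Levels were compared between genes per kilobase of annotated exon. In the Dzip1 wild type Maoa stood at 5.91 ± 0.343 CPM per kilobase, Maob at 3.17 ± 0.232, Slc6a4 at 0.492 ± 0.175, Htr2a at 0.396 ± 0.0337, Htr1b at 0.213 ± 0.0184, Htr2b at 0.0443 ± 0.00906 and Tph1 at 0.00212 ± 0.00216 (SD, n = 3). Neighbours in this order did not overlap between libraries, except Slc6a4 and Htr2a, whose ranges did. The order was the same in S14R/+, with the same single overlap. In the Ift88 wild type the order began with Maoa at 11.01 ± 1.89 CPM per kilobase and Maob at 4.95 ± 5.63 (SD, n = 2), and these neighbours alone did not overlap. In the knockout Maob at 12.3 ± 5.61 and Maoa at 11.96 ± 2.43 CPM per kilobase (SD, n = 3) overlapped, and both lay above Slc6a4 at 0.944 ± 0.147.

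Neither genotype moved any of the 7 genes past the threshold of an adjusted p of 0.05. In the Ift88 comparison edgeR called 0 of the 7 genes (0% of the 14244 genes tested were called, in either direction), DESeq2 also called 0, and 0 of the 7 had an unadjusted p under 0.05, against 6.01% of all genes tested. In the Dzip1 comparison 5 of the 7 passed the filter on low counts, and edgeR called 0 of them (0% of 16160 genes tested). There too DESeq2 called 0 of the 7, and 0 of the 5 had an unadjusted p under 0.05, against 5.93% of all genes tested. On TMM-scaled CPM, which corrects for library composition, 0 of the 7 genes separated the Ift88 genotypes completely, where 24.6% of tested genes did (13.5% with the mutant higher and 11.1% lower). In the Dzip1 comparison 1 of 5 did, Maob, where 10.3% of tested genes did (5.27% higher and 5.01% lower). Positive log2 fold changes were seen for 3 of 7 genes (Ift88; 49.4% of all tested) and 3 of 5 (Dzip1; 49.9% of all tested). The intervals of the differences, given gene by gene below, were wider for Ift88 than for Dzip1 for each gene tested in both.

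**Figure D2:**
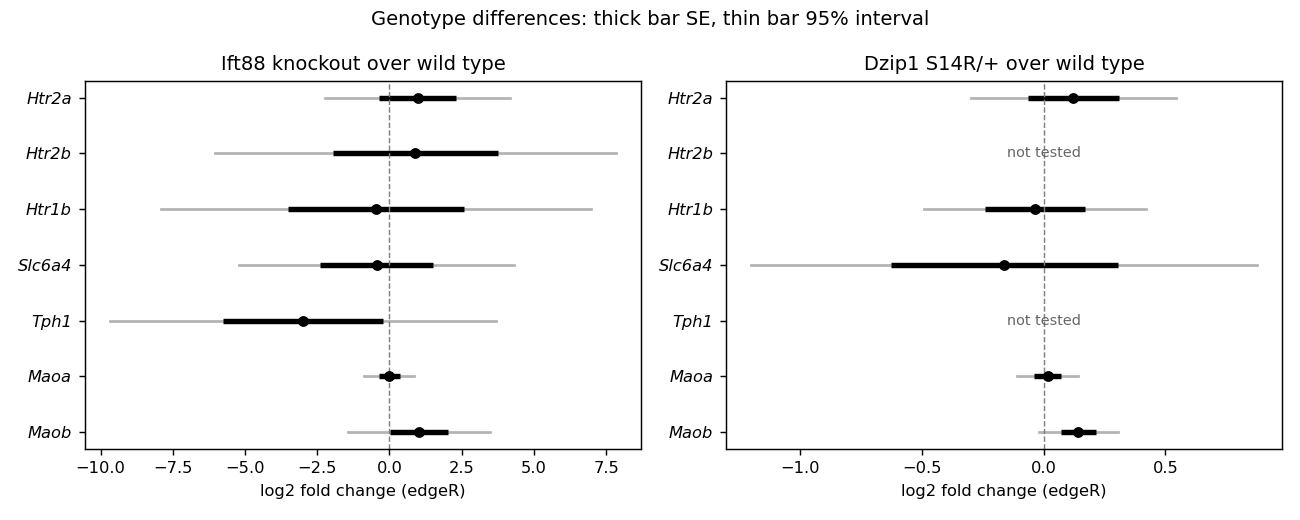
edgeR log2 fold change of mutant over wild type for each gene (left, Ift88; right, Dzip1; the horizontal scales differ), with the SE as a thick bar and the 95% interval as a thin bar. Every interval spans 0, and Htr2b and Tph1 had too few counts for the test in the Dzip1 experiment.

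Htr2a encodes a Gq-coupled receptor of smooth muscle and platelets. Its mean level per kilobase was the highest of the 3 receptors in every group. The ranges overlapped those of Htr2b in both Ift88 groups and that of Htr1b in the Ift88 knockout. Htr2b stood above Htr2a per kilobase in Ift88 wild-type replicate 2 (0.611 against 0.448 CPM) and knockout replicate 2 (1.53 against 0.660 CPM). Htr2a spans chr14:74640840-74709494 (GRCm38, forward strand). Htr2a was measured at 2.06, 2.43 and 2.17 CPM in the Dzip1 wild type and 2.41, 1.83 and 2.94 CPM in S14R/+. The S14R/+ libraries lay on both sides of the wild-type libraries. The fitted log2 fold change was 0.12 ± 0.188 (SE), with a 95% interval from -0.30 to 0.54 (edgeR adjusted p = 0.926). Htr2a in the Ift88 libraries stood at 1.31 and 2.51 CPM in the wild type and at 1.02, 3.70 and 7.32 CPM in the knockout. The lowest and the 2 highest of these 5 libraries were knockout libraries. In edgeR the log2 fold change was 0.98 ± 1.32 (SE), with an interval from -2.24 to 4.19 (edgeR adjusted p = 0.943), and it was 0.215 without knockout replicate 3.

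Htr2b, the receptor of drug-induced valve disease, was near the limit of detection in the Dzip1 libraries and uneven among the Ift88 libraries. In the Dzip1 experiment the wild type gave 9, 6 and 7 counts and S14R/+ 3, 7 and 4 counts, levels of at most 0.114 CPM, and it was not tested. Among the Ift88 libraries the wild type gave 0 and 70 counts of it and the knockout 10, 131 and 0. So 1 library of each genotype reached 1 CPM, at 1.30 and 3.25 CPM, and 1 library of each had no count. A count of 0 allows up to 0.0955 CPM in wild-type replicate 1 and 0.128 CPM in knockout replicate 3 (3 counts of the library, counting error alone). The log2 fold change was 0.89 ± 2.86 (SE), with an interval from -6.05 to 7.84 (edgeR adjusted p = 0.983), and it was -1.91 without knockout replicate 2. In GRCm38 Htr2b spans chr1:86099026-86111970 (reverse strand), inside the span of Psmd1 on the forward strand, and 252 bases (11.8%) of its exons overlap exons of Psmd1. Psmd1, which encodes a proteasome subunit, stood at 212 to 410 CPM. Whether counting used the strand is not given in the sources used here, so reads from the shared bases cannot be assigned to either gene.

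Htr1b, at chr9:81628291-81633828 (GRCm38, reverse strand), encodes a Gi-coupled receptor. In the Dzip1 experiment it was the steadiest of the low genes, with 74, 77 and 83 counts in the wild type and 81, 81 and 101 counts in S14R/+. These counts correspond to 0.941, 0.974 and 1.10 CPM against 0.942, 0.895 and 1.08 CPM, and the groups overlapped. The fitted log2 fold change was -0.04 ± 0.205 (SE), with an interval from -0.49 to 0.42 (edgeR adjusted p = 0.983). Of the Ift88 libraries 1 library of each genotype held all of its counts, 50 in wild-type replicate 2 and 30 in knockout replicate 1, and the other 3 libraries had none. The log2 fold change of -0.46 ± 3.06 (SE; edgeR adjusted p = 0.991) turned to 0.12 without knockout replicate 2 and to 0.11 without knockout replicate 3. Its exons share 852 bases (18.0%) with D430036J16Rik, an antisense gene on the other strand, and reads there cannot be told apart without strand.

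Slc6a4 encodes the serotonin transporter, a protein abundant on platelets, and spans chr11:76998603-77032340 (GRCm38, forward strand). It was the most variable of the 5 genes tested in the Dzip1 experiment: its coefficient of variation over the 6 libraries was 51.2%, against 16.6% for Htr2a, 8.51% for Htr1b, 6.77% for Maob and 3.74% for Maoa. Wild-type libraries stood at 2.81, 1.33 and 2.56 CPM and S14R/+ libraries at 0.814, 1.44 and 3.64 CPM. S14R/+ held both the lowest and the highest library. In edgeR the log2 fold change was -0.16 ± 0.466 (SE), with an interval from -1.20 to 0.88 (edgeR adjusted p = 0.964), and it was 0.205 without S14R/+ replicate 1 and -0.97 without S14R/+ replicate 3.

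Platelet genes varied with Slc6a4 from library to library. The summed level of 9 platelet markers came to 96.5, 56.5 and 75.9 CPM in the Dzip1 wild type and 50.7, 64.5 and 111 CPM in S14R/+, the same order of the 6 libraries as for Slc6a4. Of the 9 markers 8 were highest in S14R/+ replicate 3 and 8 were lowest in S14R/+ replicate 1, the extremes of Slc6a4, and none was at 0 in any library. Over 14087 genes with a mean count of at least 50, the 3 whose centred log2 levels lay closest to those of Slc6a4 over the 6 libraries were Itga2b, Plek and Gp9. Their mean absolute differences were 0.11, 0.16 and 0.16, where the median gene had 0.52. Itga2b and Gp9 encode platelet adhesion receptor subunits and are among the 9 markers, and Plek encodes pleckstrin, a platelet and leukocyte protein. Itga2b stood at 29.4, 13.1 and 22.4 CPM in the wild type and at 9.91, 17.3 and 33.6 CPM in S14R/+. In this bulk tissue, fewer cells of a type and less RNA per cell cannot be told apart, and the part of platelets in the Slc6a4 level was not tested.

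**Figure D3:**
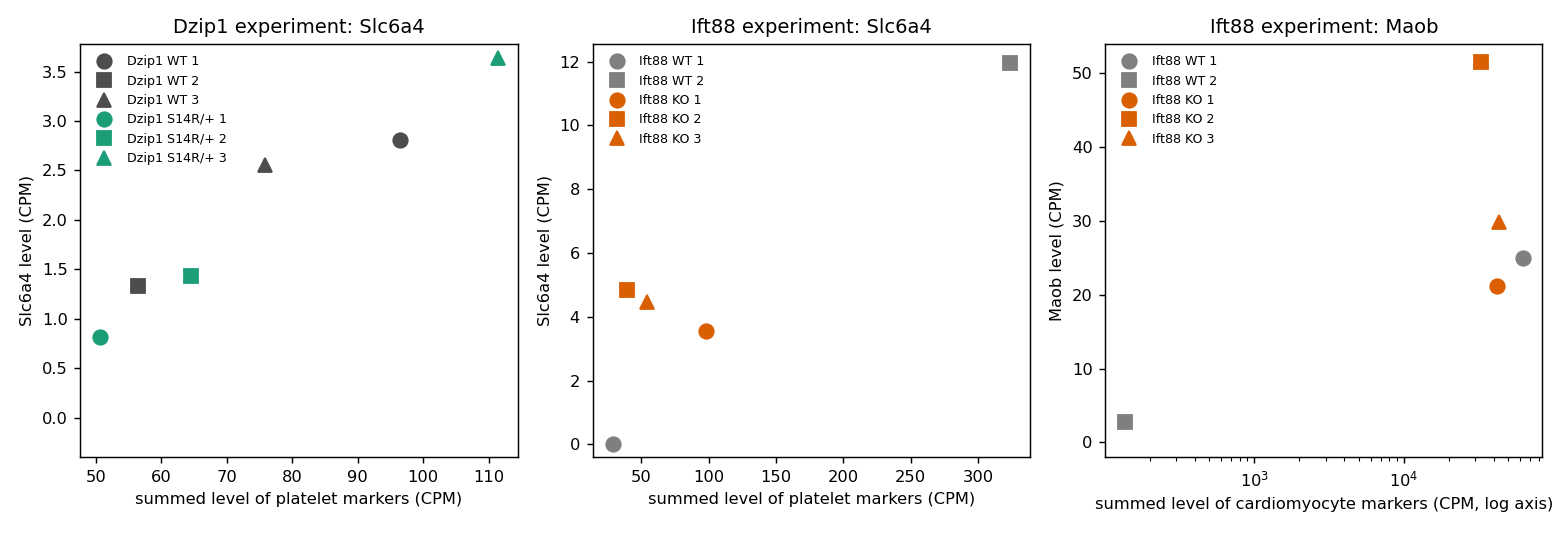
Level of Slc6a4 against the summed level of 9 platelet markers in the Dzip1 (left) and Ift88 (middle) libraries, and level of Maob against the summed level of 16 cardiomyocyte markers in the Ift88 libraries (right, log horizontal axis), in plain CPM with 1 point per library. In the Dzip1 libraries both values keep 1 order, from S14R/+ replicate 1 to S14R/+ replicate 3; Ift88 wild-type replicate 2 is at the far right of the middle panel and at the far left of the right panel.

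Slc6a4 in the Ift88 libraries stood at 0 and 11.95 CPM in the wild type and at 3.54, 4.84 and 4.45 CPM in the knockout. All 3 knockout libraries lay between the 2 wild-type libraries. The log2 fold change was -0.44 ± 1.96 (SE), with an interval from -5.20 to 4.33 (edgeR adjusted p = 0.987). It was -1.47 with wild-type replicate 1 omitted, and with replicate 2 omitted the knockout was at least 45.2-fold higher than the remaining wild-type library, which had no count (floor of 3 counts). The platelet markers summed to 28.5 and 324 CPM in the wild type and 97.7, 39.0 and 54.1 CPM in the knockout, and 8 of the 9 were highest in wild-type replicate 2, where Slc6a4 was highest. The number of these markers at 0 was 3 in wild-type replicate 1, where Slc6a4 had no count and Pf4 stood at 13.2 and Itga2b at 7.04 CPM. It was 4 in knockout replicate 3, where Slc6a4 stood at 4.45 CPM. edgeR called 0 of the 9, and DESeq2 called 1, Gp6, lower in the knockout. The 12 endothelial markers summed to 388 and 3362 CPM in the wild type and to 2168, 2993 and 2399 CPM in the knockout. This is the order of the 5 libraries by Slc6a4, whereas the platelet sum ran in the reverse order among the knockout libraries. The part of either cell type in the Slc6a4 level was not tested. The gene with the pattern closest to Slc6a4 over these 5 libraries was Atp2a3, which encodes a calcium pump. Its mean absolute difference was 0.07, followed by Rwdd2a at 0.11 and Plcd1 at 0.13 (median gene 1.19).

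The 250 bases before the annotated start are shown for Slc6a4, Itga2b and Maoa. In the Dzip1 libraries Itga2b followed the same order of libraries as Slc6a4, and Maoa hardly varied. The sequences are from RefSeq (GRCm38.p6), 5′ to 3′ on the strand of the gene: Slc6a4 chr11:76998347-76998596 on the forward strand, Itga2b chr11:102469884-102470133 on the reverse strand and Maoa chrX:16619448-16619697 on the forward strand. Capitals mark matches on either strand to GATAA, the core bound by GATA factors, and to GGGCGG, the GC box.
Slc6a4: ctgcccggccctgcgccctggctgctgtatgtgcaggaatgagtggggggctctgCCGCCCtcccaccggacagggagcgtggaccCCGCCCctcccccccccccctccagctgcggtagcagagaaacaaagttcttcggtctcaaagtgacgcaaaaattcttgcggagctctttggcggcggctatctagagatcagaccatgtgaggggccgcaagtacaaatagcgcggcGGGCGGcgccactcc
Itga2b: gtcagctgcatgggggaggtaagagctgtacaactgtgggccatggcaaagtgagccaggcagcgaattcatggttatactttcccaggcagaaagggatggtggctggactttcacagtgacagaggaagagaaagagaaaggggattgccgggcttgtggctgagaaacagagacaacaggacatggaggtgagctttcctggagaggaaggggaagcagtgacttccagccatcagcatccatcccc
Maoa: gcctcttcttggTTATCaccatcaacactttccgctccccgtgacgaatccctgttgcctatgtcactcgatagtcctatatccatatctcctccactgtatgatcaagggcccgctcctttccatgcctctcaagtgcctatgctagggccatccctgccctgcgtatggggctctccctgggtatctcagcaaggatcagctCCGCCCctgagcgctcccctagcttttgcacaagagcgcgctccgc
The Slc6a4 window holds 3 matches to GGGCGG and 0 to GATAA, that of Itga2b 0 of either, and that of Maoa 1 of each. The window of Gp9, whose levels also followed that order of libraries, holds 1 match to GATAA and 0 to GGGCGG. Of 32851 such windows in the mouse genome 32.7% hold GGGCGG and 22.6% hold GATAA. The matches are a description of the letters and not of bound sites.

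Tph1 encodes the tryptophan hydroxylase of tissues outside the brain, the rate-limiting enzyme of serotonin synthesis, and lies at chr7:46644641-46672537 (GRCm38, reverse strand). In the Dzip1 experiment the wild type gave 0, 1 and 2 counts and S14R/+ 0, 0 and 1 counts, of more than 75 M counts in each library, and Tph1 was not tested. The Ift88 libraries held 0 and 645 counts of it in the wild type and 0, 80 and 5 counts in the knockout. Wild-type replicate 2 held it at 11.99 CPM, and the highest knockout library, replicate 2, at 1.99 CPM. The fitted log2 fold change was -2.99 ± 2.75 (SE), with an interval from -9.68 to 3.69 (edgeR adjusted p = 0.91). Without wild-type replicate 2 the remaining wild-type library had no count. The pooled knockout counts then gave a level at least 9.37-fold higher, so wild-type replicate 2 set the negative direction. Knockout replicate 2 held 80 of the 85 pooled counts, so 1 knockout library carries this bound. Knockout replicate 1 had no count, like the remaining wild-type library.

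Mast cells make serotonin through Tph1. The summed level of 9 mast cell markers was 26.3 and 261 CPM in the Ift88 wild type and 86.8, 127 and 213 CPM in the knockout, and 6 of the 9 were highest in wild-type replicate 2. Among them Hdc, which encodes the enzyme of histamine synthesis, stood at 5.99 and 89.7 CPM in the wild type and at 21.8, 24.8 and 0 CPM in the knockout. Cpa3, a mast cell protease, stood at 4.24 and 55.3 CPM against 2.68, 19.7 and 12.2 CPM. Other markers were highest elsewhere: the protease Tpsab1 stood at 124 CPM in knockout replicate 3 and 6.71 CPM in wild-type replicate 2, Mcpt4 at 15.7 and 1.04 CPM in the same libraries, and Kit was highest in knockout replicate 1 at 54.2 CPM. edgeR called 0 of the 9, and DESeq2 called 1, Fcer1a, lower in the knockout. In the Dzip1 libraries, where Tph1 was almost absent, the mast cell proteases Tpsb2 and Tpsab1 and the receptor chain Fcer1a had no count in any library, and Cma1 had at most 4 counts. Hdc was present there, at 4.13 to 5.38 CPM, and Cpa3 ranged from 0.128 to 0.61 CPM and Mcpt4 from 0.213 to 0.407 CPM. Kit, which other cells also express, made up most of the sum of 36.9 to 40.3 CPM there. The part of mast cells in the Tph1 level was not tested.

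Maoa encodes monoamine oxidase A, the form with the higher affinity for serotonin, and its transcript was the steadiest of the set over the Dzip1 libraries. Its level was 23.0, 25.2 and 25.6 CPM in the Dzip1 wild type and 24.4, 24.7 and 25.0 CPM in S14R/+. The S14R/+ libraries lay within the wild-type range. In edgeR the log2 fold change was 0.02 ± 0.0566 (SE), with an interval from -0.11 to 0.14 (edgeR adjusted p = 0.973). Maoa in the Ift88 libraries stood at 40.3 and 51.4 CPM in the wild type and at 40.6, 60.7 and 48.2 CPM in the knockout, and the groups overlapped. The log2 fold change was -0.0021 ± 0.357 (SE), with an interval from -0.87 to 0.86 (edgeR adjusted p = 1 after rounding), and it stayed between -0.15 and 0.07 when any 1 library was left out. Maoa thus had the narrowest interval of the 7 genes in the Ift88 comparison.

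Maob encodes monoamine oxidase B, which prefers phenylethylamine and in the heart is found in muscle cells among others. Its level was 8.53, 8.38 and 9.57 CPM in the Dzip1 wild type and 9.42, 9.86 and 9.68 CPM in S14R/+. The ranges overlapped in plain CPM through wild-type replicate 3. After TMM scaling they did not: all S14R/+ libraries then lay above all wild-type libraries, which 5.27% of tested genes also showed. The fitted log2 fold change was 0.14 ± 0.0722 (SE), with an interval from -0.02 to 0.30, and it did not pass the threshold (edgeR adjusted p = 0.828, unadjusted p = 0.0771). It was positive with each library left out in turn, from 0.12 to 0.19. The cardiomyocyte markers summed to 48331, 48738 and 43855 CPM in this wild type and to 50581, 50493 and 50892 CPM in S14R/+. Of the 16, 14 had positive log2 fold changes, with a median of 0.11. Library by library, 4 were highest in S14R/+ replicate 2 and 2 were lowest in wild-type replicate 2, the extremes of Maob. Their part in the Maob difference was not tested.

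Maob in the Ift88 libraries stood at 24.9 and 2.70 CPM in the wild type and at 21.2, 51.5 and 29.8 CPM in the knockout. Wild-type replicate 2 was the low library, and wild-type replicate 1 lay inside the knockout range. In edgeR the log2 fold change was 1.03 ± 1.01 (SE), with an interval from -1.42 to 3.48 (edgeR adjusted p = 0.916). It was 3.67 with wild-type replicate 1 omitted (edgeR adjusted p = 0.118) and 0.14 with replicate 2 omitted (edgeR adjusted p = 0.935). Of 16 cardiomyocyte markers 15 were lowest in wild-type replicate 2, the library with the least Maob. Only 3 of the 16 were highest in knockout replicate 2, the library with the most Maob. Their sum in that knockout library was 33035 CPM, under the 62184 CPM of wild-type replicate 1, where Maob was lower. None of the 16 was at 0 in wild-type replicate 2, and their part in the Maob level was not tested. The aldehyde dehydrogenase gene Aldh1b1 was also lowest in that library: it stood at 133 and 11.7 CPM in the wild type and at 130, 143 and 132 CPM in the knockout.

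**Figure D4:**
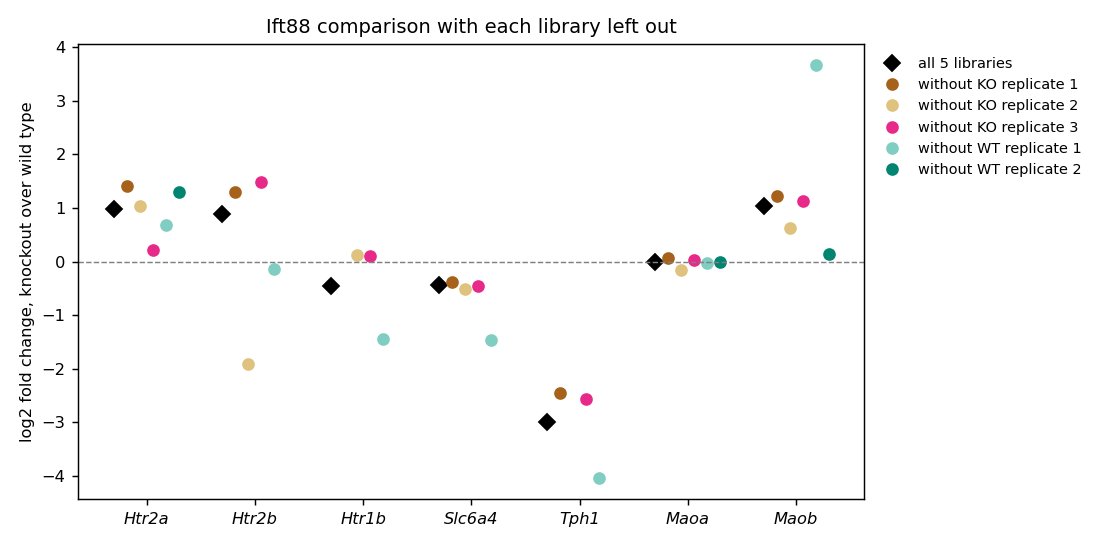
edgeR log2 fold change of the 7 genes in the Ift88 comparison (vertical axis) with all 5 libraries (black diamonds) and with each library left out in turn (coloured points). A point is missing where a group was left without a count or the gene did not pass the filter; Maoa stays near 0, and Maob spans 0.14 to 3.67.

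The 2 oxidase genes are neighbours on the X chromosome of GRCm38 and point towards each other, Maoa from 16619698 to 16687818 on the forward strand and Maob from 16709282 to 16817366 on the reverse strand. Maoa made up 72.9%, 75.1% and 72.8% of their joint counts in the Dzip1 wild type and 72.1%, 71.4% and 72.1% in S14R/+. The S14R/+ libraries lay below the wild-type libraries, with means of 71.9 ± 0.392% and 73.6 ± 1.27% (SD, n = 3). The share restates the Maoa and Maob counts given above, and how often other pairs of genes separate in this way was not examined. The 95% Wilson intervals of single libraries overlapped for some pairs, such as replicate 1 of each group (70.5 to 73.7% and 71.1 to 74.6%). They did not for S14R/+ replicate 2 (69.8 to 73.0%) and wild-type replicate 2 (73.4 to 76.7%). A two-sided exact permutation test over the libraries gave p = 0.1, the smallest p that 3 against 3 libraries allow. Among the Ift88 libraries the share was 61.8% and 95.02% in the wild type and 65.7%, 54.1% and 61.8% in the knockout, and the exact permutation p was 0.4, where 0.2 is the smallest possible. Xist, the transcript of the inactive X, had 42614 counts in Dzip1 wild-type replicate 3 and 37055 in S14R/+ replicate 2 and at most 4 in the other Dzip1 libraries, so each group held 1 female library by this measure. Of the Ift88 libraries knockout replicate 3 had no Xist count, and the other 4 had 659 to 3969. The female libraries stood at 25.6 and 24.7 CPM for Maoa and at 9.57 and 9.86 CPM for Maob.

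**Figure D5:**
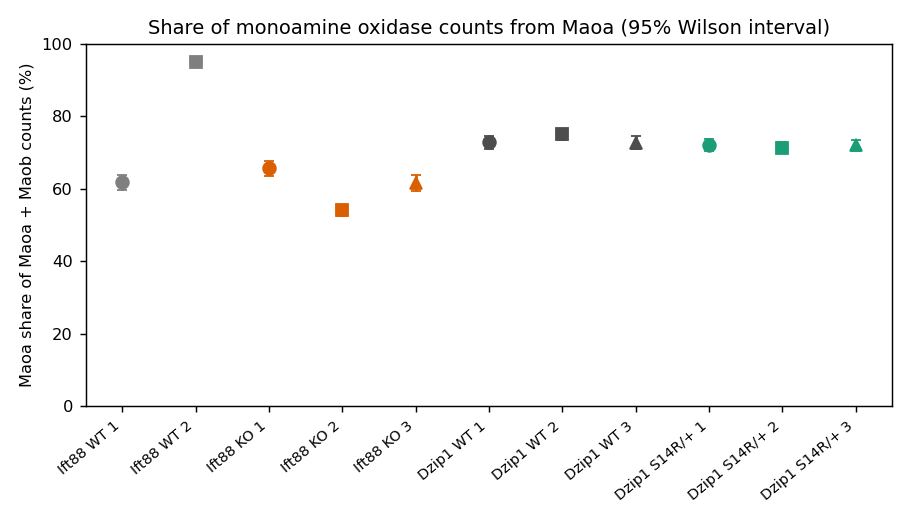
Share of Maoa in the joint counts of Maoa and Maob (vertical axis, percent, full range) in each library, with 95% Wilson intervals that cover counting error alone. The Dzip1 libraries lie between 71.4 and 75.1%, and Ift88 wild-type replicate 2 lies at 95.02%.

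Counts of 0 stood beside high counts for several genes among the Ift88 libraries. There 4 of the 7 genes (Htr2b, Htr1b, Slc6a4 and Tph1, 57.1%) had no count in 1 library and at least 50 in another, where 18.4% of the 14696 genes with a mean count of at least 10 did. In the Dzip1 experiment 0 of the 5 genes with such a mean count showed this, where 0.0805% of 16147 genes did. Htr1b met the limit with exactly 50 counts, in Ift88 wild-type replicate 2, and the shares over all genes were not matched for level. The titles of wild-type replicate 1 and knockout replicates 1 and 2 share the prefix IR28N, and the other 2 libraries carry other prefixes. Within IR28N the log2 fold changes were 0.54 for Htr2a, 0.02 for Maoa and 0.23 for Maob, with edgeR adjusted p of 0.893, 0.984 and 0.866. The lone wild-type library there had no count of Htr2b, Htr1b, Slc6a4 or Tph1, and the knockout was at least 20.6-fold, 4.38-fold, 44.7-fold and 11.7-fold higher over both its libraries. Of those, replicate 2 had no count of Htr1b, replicate 1 had none of Tph1, and replicate 2 held 131 of the 141 counts of Htr2b, so 1 library carries each of these 3 bounds.

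The rest of the pathway was read from lists of related genes. Of 11 other serotonin receptor genes 0 passed the filter among the Ift88 libraries and 3 among the Dzip1 libraries, and none was called. In the Ift88 libraries Htr4 had 191 counts in wild-type replicate 2 and at most 1 elsewhere, and Htr3a, which encodes a subunit of the serotonin-gated ion channel, had 123 counts in knockout replicate 2 and at most 1 elsewhere. In the Dzip1 libraries Htr7 stood at 0.243 ± 0.109 CPM in the wild type and 0.243 ± 0.059 in S14R/+, and Htr3a at 0.142 ± 0.037 and 0.175 ± 0.0202 (SD, n = 3). Both genes stayed under 0.5 CPM in every Dzip1 library.

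The list of synthesis and its tetrahydrobiopterin cofactor held 7 genes, 6 of which were tested in each comparison. Ddc, which encodes the decarboxylase that completes serotonin and also makes dopamine, stood at 82.9 ± 11.1 CPM in the wild type and 82.0 ± 7.70 in S14R/+, and Spr, a cofactor enzyme, at 48.4 ± 2.85 and 54.2 ± 2.70 (SD, n = 3). Of the 6 genes tested 0 were called by edgeR, 5 had positive log2 fold changes, and the median was 0.05 where that of all genes was -0.00033. Spr had 0.18 ± 0.0584 (SE; edgeR adjusted p = 0.822, unadjusted p = 0.0132). In the Ift88 experiment the same list of 6 tested genes was negative throughout, with a median of -0.90 against -0.01 for all genes, and 0 were called. On TMM-scaled CPM, for 3 of the 6 the highest knockout library was under the lowest wild-type library, where 11.1% of all tested genes did; in plain CPM Spr, 1 of the 3, overlapped. The cofactor-recycling gene Qdpr stood at 157 ± 21.2 CPM in knockout libraries (SD, n = 3) against 249 ± 47.8 in wild-type libraries (SD, n = 2), and Pts at 56.9 ± 23.5 against 114 ± 30.4. Their log2 fold changes were -0.78 ± 0.317 and -1.09 ± 0.434 (SE; edgeR adjusted p = 0.802 for both). Ddc, named after its values were seen, had 1429, 666 and 672 knockout counts against 4264 and 0 wild-type counts. Without wild-type replicate 1 its direction turned, and replicate 2, without a count, was then the only wild-type library.

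Transport beside Slc6a4 rested on the vesicular transporter Slc18a2 and on transporters of low affinity. In the Dzip1 libraries Slc18a2 stood at 12.2 ± 0.862 CPM in the wild type and 12.1 ± 0.467 in S14R/+, and Slc29a4, a monoamine transporter of the plasma membrane, at 3.74 ± 0.537 and 3.69 ± 0.149 (SD, n = 3). Slc18a2 in the Ift88 libraries stood at 9.87 and 31.5 CPM in the wild type and at 22.1, 20.7 and 30.7 CPM in the knockout, all 3 within the wild-type range. Of this list 0 of 4 tested genes were called for Ift88 and 0 of 5 for Dzip1, with 3 positive log2 fold changes in each. The medians were 0.77 and 0.0019.

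Downstream of breakdown, Aldh1b1 and other aldehyde dehydrogenases oxidize the product of monoamine oxidase, while Tgm2, a transglutaminase, can link serotonin to proteins. Tgm2 stood at 668 ± 28.9 CPM in the Dzip1 wild type and 705 ± 22.7 in S14R/+, and Aldh1b1 at 134 ± 8.94 and 135 ± 2.72 (SD, n = 3). The Ift88 values of Tgm2 were 283 ± 77.1 CPM in the knockout (SD, n = 3) and 163 ± 147 in the wild type (SD, n = 2). The list had 4 tested genes in each comparison, 0 called, with medians of 0.58 (Ift88) and 0.02 (Dzip1). Without Ift88 wild-type replicate 1 the log2 fold change of Aldh1b1 was 3.55, with replicate 2 as the only wild-type library. Aanat and Asmt, which turn serotonin into melatonin, had no count in the Ift88 libraries and at most 3 in the Dzip1 libraries.

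The list of Gq and arrestin signalling, through which Htr2a and Htr2b act among many other receptors, had 16 tested genes in each comparison and 0 called. In the Ift88 comparison 13 of the 16 were positive with a median of 0.62, where the median of all genes was -0.01 and 49.4% were positive. Plcb4, which encodes a phospholipase C, had 302 and 0 counts in the wild type and 381, 1672 and 510 counts in the knockout. A fit without wild-type replicate 1 thus set Plcb4 against 1 wild-type library without a count. On TMM-scaled CPM, for 6 of the 16 the lowest knockout library exceeded the highest wild-type library, where 13.5% of all tested genes did. Gna11, which encodes a Gq-family subunit, stood at 91.7 ± 28.7 CPM in the knockout (SD, n = 3) and 82.5 ± 12.3 in the wild type (SD, n = 2), and Itpr2, a calcium release channel, at 68.6 ± 36.6 against 33.2 ± 32.9. Several marker lists of cell types also leaned to 1 side in this comparison, and edgeR called 0 of their genes. Positive log2 fold changes were seen for 11 of 12 valve interstitial markers (median 1.56) and 10 of 12 endothelial markers (median 0.87). They were also seen for 7 of 9 smooth muscle and pericyte, 11 of 16 cardiomyocyte and 5 of 6 melanocyte markers. Of 9 platelet markers 8 were negative, and 4 of 8 mast cell and 4 of 9 macrophage markers were positive. DESeq2 called 376 of 17148 genes in this comparison, 358 of them higher in the knockout. Among those higher were 4 interstitial markers (Col1a1, Col1a2, Fmod and Vcan), 1 endothelial marker (Npr3) and 1 smooth muscle and pericyte marker (Pdgfrb). The endothelial sum was lowest in wild-type replicate 1 and highest in wild-type replicate 2, and the part of these cells in the list's values was not tested. In the Dzip1 comparison 8 of the 16 were positive with a median of -0.0052. Gna11 stood there at 107 ± 2.15 CPM in the wild type and 108 ± 3.55 in S14R/+, and the calcium channel gene Itpr1 at 140 ± 4.60 and 137 ± 2.72 (SD, n = 3).

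The patterns of the other leading members were compared with those of all genes in the same way. In the Dzip1 libraries the genes closest to Maoa were Oat, Rnf146 and Dcun1d1, each with a mean absolute difference of 0.01 on the log2 scale (median gene 0.07), and those closest to Maob were 1500004A13Rik, Gm889 and Cyb5rl, each at 0.02 (median gene 0.09). Those closest to Htr2a were Mme, Gm19578 and Rslcan18, each at 0.06 (median gene 0.16). In the Ift88 libraries the closest genes were Slc31a1, Ap2b1 and Utp3 for Maoa, at 0.04, 0.05 and 0.07 (median gene 0.57). For Maob they were Dennd6b, Palld, which encodes the actin-binding palladin, and Kcnn2, which encodes a calcium-activated potassium channel, at 0.09, 0.19 and 0.19 (median gene 1.20).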

How the data were processed

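RNA from 11 mitral leaflet samples had been sequenced with the SMART-Seq v4 kit, per the labels' protocols. The authors deposited 1 table per experiment with raw counts per gene and library; the tools named are HTSeq, cutadapt 1.11, FastQC 0.11.5, DESeq and DESeq2, with the GRCm38 build, per the submitters' processing notes. The aligner, the annotation and how strand was treated were not given in the sources used here. No fold change of the authors was used.

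Libraries were grouped by the genotype label and numbered in accession order. Levels are plain CPM, the count over the library total on the CPM scale. Each table was tested on its own in edgeR 4.0.16 under R 4.3.3 (TMM, its quasi-likelihood test, filterByExpr, Benjamini-Hochberg adjusted p of 0.05 over all genes tested); SEs are the fold change over the root of F. Alternatives were DESeq2 1.42.0, RLE scaling, other filters, each library left out, the title prefix and a length correction (lowess span 0.3). Exon lengths are from GENCODE M21; 25326 of 28591 symbols matched. Pattern likeness is the mean absolute difference of centred log2(CPM + 0.5). The steps were tested on simulated data.

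The text names all members, and of each related list the 2 genes with the highest mean CPM plus any past the threshold, and the 3 closest genes for the 3 members with the highest CPM in each table; the single marker genes, Aanat, Asmt, the search for Slc6a4 in the Dzip1 table, the motif search, the count of genes at 0 and the oxidase share were added after values were seen. A gene that this rule names in the transport list is not reported here. The members and lists were chosen with earlier results of these data known. Wilson intervals and floors cover counting error alone, while the edgeR intervals also take in the spread among libraries.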

Additional observations from a re-analysis of the deposited data

How the results depend on the processing

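The number of genes called over the whole table was 0 by edgeR in both experiments. In the Ift88 experiment it was 376 with DESeq2 and ranged from 0 to 187 with 1 library left out, the 187 without wild-type replicate 1, and it stayed 0 under the other settings. In the Dzip1 experiment it ranged from 0 to 10 with 1 library left out, with 1 call when S14R/+ replicate 2 was omitted, 2 when wild-type replicate 1 was and 10 when wild-type replicate 2 was, and was 0 otherwise. The number of the 7 genes called was 0 under every setting run, DESeq2 included, with adjusted p between 0.118 and 1 in the Ift88 and between 0.517 and 1 in the Dzip1 experiment. With 0.5 CPM as the limit 5 genes were expressed in S14R/+.

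Of the log2 fold changes in the Ift88 comparison, with 1 library left out those of Maoa ranged from -0.153 to 0.0743, of Htr2b from -1.91 to 1.48 and of Htr1b from -1.45 to 0.123. Within IR28N Maoa had 0.0231, and with the prefix as a covariate Slc6a4 had 3.01 ± 4.72 and Tph1 0.0059 ± 0.576 (SE). In the Dzip1 comparison the ranges with 1 library left out were -0.97 to 0.205 for Slc6a4, -0.12 to 0.0242 for Htr1b, -0.0567 to 0.282 for Htr2a and -0.0309 to 0.0451 for Maoa. These turns came from libraries or title prefixes left out or fitted; RLE scaling, DESeq2, the filters and the length correction turned none. No value was given where a group was left without a count. No paired analysis was run because the labels give no numbers that pair samples. In the Ift88 experiment alone the title prefix, which the labels do not explain, was fitted as a covariate, as IR28N against all other prefixes together.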
